A study of Bos taurus with 96 samples.

Results

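The nuclear-encoded genes of the mitochondrial respiratory chain were measured in 5 fat depots and a skeletal muscle of cattle. A gene was taken as a member when its symbol starts with NDUF, SDH, UQCR, COX4, COX5, COX6, COX7, COX8 or ATP5. Of the 100 bovine RefSeq symbols that fit this rule, 89 had a tested probe that could be named, which is 181 of the 34227 probes and 89 of the 10653 named genes tested. They comprised 36 subunits of complex I, 4 of complex II, 7 of complex III, 15 of complex IV, 17 of complex V, the complex V inhibitor ATP5IF1, and 9 assembly factors of complexes I and II. NDUFA4 and NDUFA4L2 were counted with complex IV. The 11 symbols without a named probe were COX5A, COX6C, COX7C, COX7B2, COX8C, NDUFS8, UQCRC2, NDUFAF1, NDUFAF5, NDUFAF8 and the pseudogene COX7ALP1, and no probe was named for any of the 13 subunits that the mitochondrial genome encodes.

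The respiratory chain carries electrons from NADH (complex I) and succinate (complex II) through ubiquinone, complex III and cytochrome c to complex IV, which reduces oxygen. The proton gradient that complexes I, III and IV build is used by complex V, the ATP synthase, to make ATP. Skeletal muscle is rich in mitochondria, whereas the white adipocyte, which is filled by a lipid droplet, holds few. Several complex IV subunits come in pairs of isoforms, of which COX6A2, COX7A1 and COX8B are the heart and muscle forms and COX6A1, COX7A2 and COX8A the forms of most other tissues.

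The animals were Angus, Hereford or Wagyu x Angus steers, and the labels give 259 days in a feedlot for every sample. Per the study's methods the steers that gave the fat were slaughtered at about 26 months of age. The fat depots were intramuscular fat cut out of the longissimus dorsi (IMF), fat from under the skin of the rump (SC), fat from between muscles (Inter), fat around the kidney (Kid) and fat of the omentum (Omen), each of them read on 12 arrays, 4 per breed, all from steers kept on pasture after weaning. Longissimus dorsi muscle (LD), which still holds its intramuscular fat, was read on 36 arrays, 24 from pasture animals (8 per breed) and 12 from animals given supplement after weaning (4 per breed). Part of the LD samples, of both diets, come from an earlier kill according to the methods, but the labels do not say which, so the age at slaughter of a given LD array is not known here. The depots were taken from the same steers, the labels do not tie samples to animals, and no pairing by animal was possible.

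Each array is a one-colour Agilent bovine array. A level here is the log2 of a probe's processed signal minus the 75th percentile of that array, so that 0 is the 75th percentile, and a gene is represented by its brightest probe. The 75th percentile itself averaged 9.02 in LD, 9.18 in SC, 9.81 in IMF, 10.02 in Omen, 10.10 in Kid and 10.19 in Inter (log2), so the SC and LD arrays were dimmer than those of the other depots, and the part of this in the results was not tested. All 89 members were well above background on every array of every tissue. Scanning took 3 days, and day 3 held all 12 of the IMF arrays, day 2 all 12 from Inter and day 1 all but 1 from SC, and in those comparisons scan day and depot can barely be told apart. The labelled tissues were checked against marker lists. The mean level of 13 skeletal myofibre markers lay between 8.05 and 8.89 in LD and between -4.25 and -2.84 in SC, but between 5.95 and 7.74 in IMF. In Inter 2 arrays stood apart, at 5.56 and 1.98, with the others at -0.70 or lower. One SC array, from a Hereford steer, had a smooth muscle marker level of 5.60 against 2.29 or lower on the others, and in Omen the mesothelium marker level was 0.51 to 1.12 on 5 arrays and -2.53 or lower on the others.

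Every complex had its highest mean level in LD and, among the fat depots, in IMF, and its lowest in Omen. In complex IV the genes did not share the place of IMF. There IMF was the highest fat depot for 8 of the 15 genes and the lowest for 6, and the median difference from SC was 0.02. The mean level over the 36 complex I genes was 5.45 ± 0.12 (SD, n = 36) in LD, 4.10 ± 0.48 (n = 12) in IMF, 3.58 ± 0.15 (n = 12) in SC, 3.54 ± 0.26 (n = 12) in Kid, 3.29 ± 0.21 (n = 12) in Inter and 3.13 ± 0.22 (n = 12) in Omen. The LD arrays, from 5.26 to 5.73, lay above all fat arrays. The IMF arrays, from 3.42 to 4.71, overlapped the SC arrays, from 3.29 to 3.79. Neither SC and Kid nor Inter and Omen differed beyond their spread. For complex V the means were 6.26 ± 0.11 in LD, 4.94 ± 0.44 in IMF, 4.50 ± 0.22 in Kid, 4.49 ± 0.14 in SC, 4.22 ± 0.15 in Inter and 4.02 ± 0.20 in Omen. Complex III ranged over the tissues from 3.59 ± 0.28 in Omen to 6.18 ± 0.12 in LD, and complex II from 3.45 ± 0.30 to 5.43 ± 0.15 between the same tissues. The spread within IMF was wider than in SC for every complex.

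**Figure D1:**
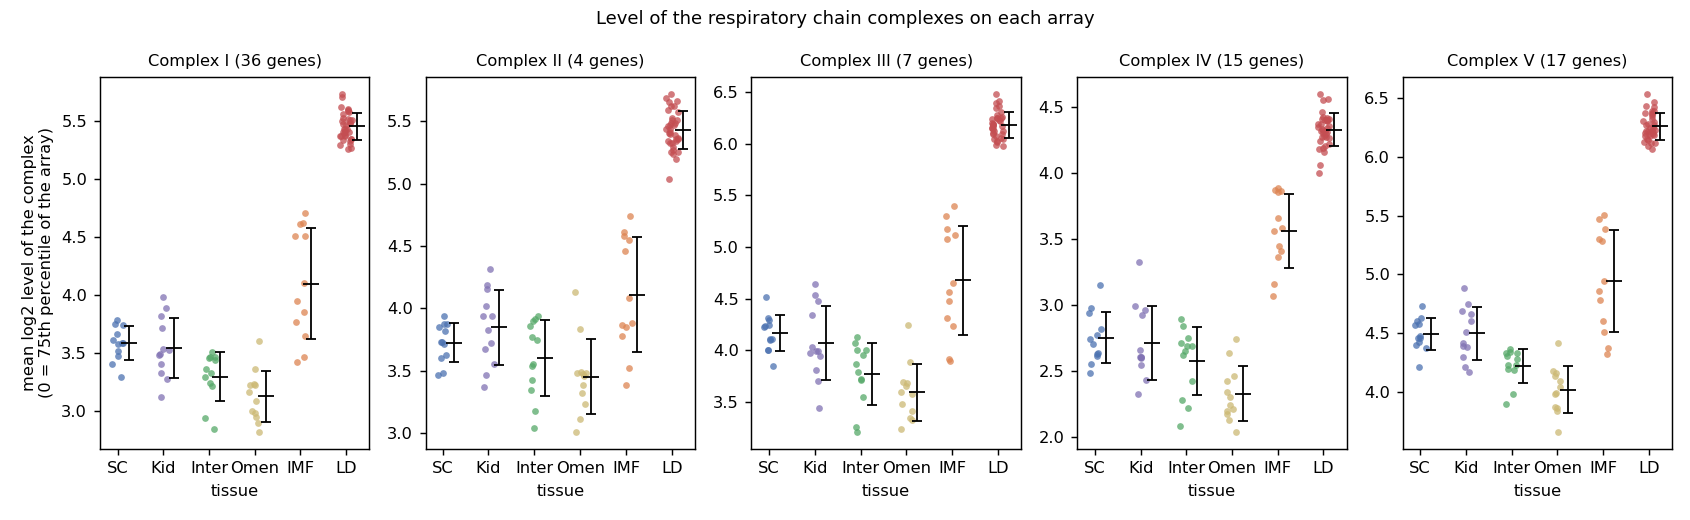
Mean log2 level of the genes of each respiratory chain complex (y axis, 0 is the 75th percentile of the array) on each array by tissue (x axis), with a black bar for the mean and its SD (12 arrays per fat depot and 36 for LD). LD lies above all fat arrays for each of the 5 complexes, IMF is spread upward from the SC range (complex I from 3.42 to 4.71), and Omen has the lowest mean of each complex.

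The depots differed in 88 of the 89 members when depot and breed were fitted over the 60 fat arrays (limma, adjusted over all probes tested), against 91% of all named genes, so nearly every gene on the array differed between depots and the members' count stands near that background. The gene not past the threshold was SDHAF4, an assembly factor of complex II (adjusted p = 0.116, limma). The lowest adjusted p-values belonged to COX6A2 (6.81e-27), COX7A1 (2.88e-23), NDUFB4 (5.69e-16), COX8B (2.15e-15), ATP5MC1 (5.91e-15) and NDUFA4L2 (9.15e-15). The order of the depots was shared by many members. IMF was the highest fat depot for 71 of the 89 and Omen the lowest for 75. All 7 complex III and all 17 complex V genes had IMF highest and Omen lowest of the fat depots, and for all of these the means rose in the order Omen, Inter, SC, IMF, LD, as they did for 63 of the 89 members. LD was the highest of the 6 tissues for 81 members, and in 77 members IMF had a mean in between SC and LD.

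In IMF against SC, 60 of the 89 members passed the threshold of adjusted p under 0.05, 52 higher in IMF and 8 lower, against 29.9% of all named genes higher and 39.2% lower. The median difference was 0.39 over the members and -0.07 over all named genes (log2). Higher genes made up 24 of 36 in complex I, 2 of 4 in complex II, 4 of 7 in complex III and 11 of 17 in complex V, with none lower in these 4 complexes. In complex IV 7 were higher and 6 lower. In 12 members the IMF and SC arrays did not overlap, 6 of them with IMF above and 6 with IMF below, against 20.9% of all named genes without overlap in either direction. In 34 of the 35 called genes with several probes every probe pointed the same way, and the exception was COX7B, for which another probe was called in the opposite direction. RNA was measured per amount of total RNA, so that fewer cells of a type and less RNA per cell cannot be told apart.

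The 3 largest rises in IMF belonged to the muscle isoforms of complex IV. COX6A2 had levels of -3.97, -3.79 and -3.45 (lowest, median and highest) in SC and of 2.61, 4.21 and 5.41 in IMF, which is a difference of 7.93 ± 0.26 (SE) or 243-fold (adjusted p = 3.34e-18, limma). Every IMF array lay far above every SC array. COX8B went from -2.25, -1.05 and 0.33 in SC to 2.74, 4.23 and 5.26 in IMF (37.1-fold, adjusted p = 3.48e-12), again without overlap. COX7A1 went from 1.57, 1.99 and 2.58 to 3.79, 5.31 and 6.03 (8.43-fold, adjusted p = 1.27e-10), also without overlap. The general isoforms moved the other way. COX6A1 was 4.66, 4.89 and 5.16 in SC and 3.04, 3.65 and 4.32 in IMF (difference -1.14, adjusted p = 6.81e-08), COX8A 4.14, 4.64 and 5.04 against 2.77, 3.13 and 3.71 (-1.34, adjusted p = 3.26e-10), and COX7A2 3.74, 3.97 and 4.43 against 2.62, 3.14 and 3.55 (-0.86, adjusted p = 2.51e-07). In none of these 3 genes did the IMF and SC arrays overlap. COX7A2L, which helps to join complexes III and IV into larger assemblies, was lower by a difference of -1.03 (adjusted p = 3.63e-10). COX4I1, the main form of a nuclear-encoded regulatory subunit, had levels of 5.61, 5.98 and 6.20 in SC and 5.42, 5.82 and 6.25 in IMF and did not pass the threshold (-0.08 ± 0.10, adjusted p = 0.532). COX4I2, the form best known from lung, was lower in IMF (-1.17, adjusted p = 8.49e-06) with overlapping groups. NDUFA4 was higher (1.12 ± 0.17, adjusted p = 2.22e-06), and its relative NDUFA4L2, a gene known to respond to low oxygen, was lower, at -0.06, 0.48 and 1.09 in SC and -1.33, -1.003 and -0.69 in IMF (-1.48 ± 0.12, adjusted p = 2.87e-10).

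**Figure D2:**
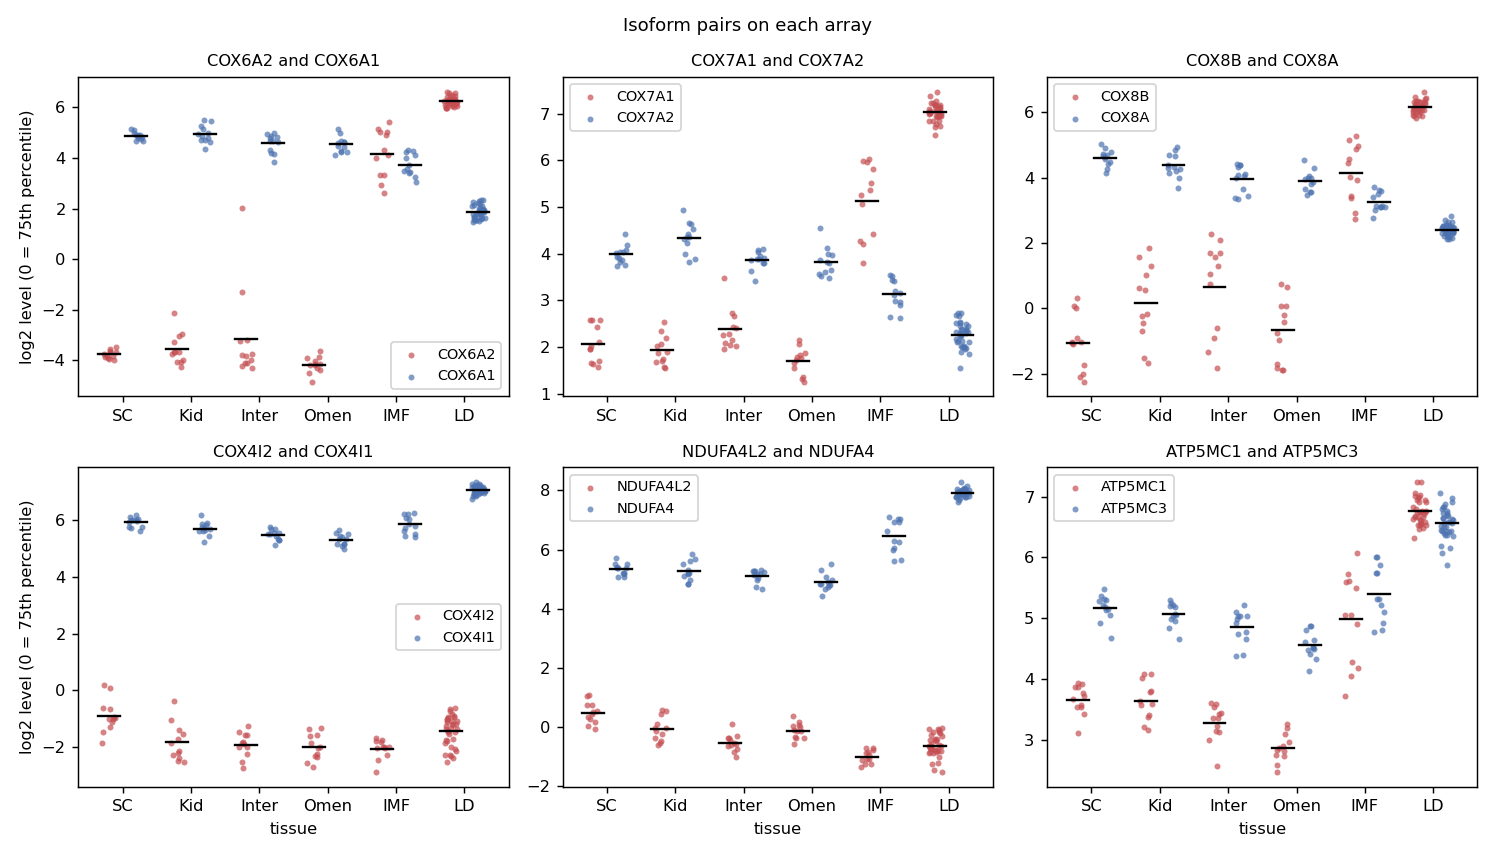
Log2 levels (y axis, 0 is the 75th percentile of the array) of 6 pairs of related subunits on each array by tissue (x axis), with a bar for the mean. Levels of different probes are not on a common scale, so each gene should be followed across tissues only. COX6A2, COX7A1 and COX8B rise from SC to IMF and LD while COX6A1, COX7A2 and COX8A fall, and ATP5MC1 rises more than ATP5MC3.

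In complex I the largest rise in IMF was that of NDUFB2, an accessory subunit of the membrane arm, with levels of 1.06, 1.57 and 2.06 in SC and 2.14, 2.95 and 3.81 in IMF (2.79-fold, adjusted p = 1.65e-07). NDUFB2 and NDUFB4 were the complex I genes whose IMF and SC arrays did not overlap. NDUFS1, a core subunit that carries iron-sulfur clusters, was 1.17, 1.52 and 1.75 in SC and 1.44, 2.20 and 3.15 in IMF (difference 0.78 ± 0.17, adjusted p = 0.000398), so the lower IMF arrays fell inside the SC range. NDUFV1, the subunit that binds NADH, was 3.92, 4.52 and 4.80 in SC and 3.46, 4.30 and 5.06 in IMF and did not pass the threshold (-0.09 ± 0.16, adjusted p = 0.653). Over complex I the differences ran from -0.40 for NDUFA10, which was not called, to 1.48 for NDUFB2.

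The succinate dehydrogenase genes of complex II were split. SDHB, the iron-sulfur subunit, was 1.57, 1.88 and 2.09 in SC and 1.93, 2.83 and 3.97 in IMF (1.07 ± 0.19, adjusted p = 2.37e-05), whereas SDHA, the catalytic flavoprotein, was 5.76, 6.16 and 6.36 in SC and 5.08, 5.86 and 6.49 in IMF (-0.22 ± 0.13, adjusted p = 0.145). SDHC was higher by 0.45 (adjusted p = 0.00547). In complex III UQCRB, which lines the ubiquinone site, was higher by 0.93 ± 0.18 (adjusted p = 7.15e-05), with levels of 3.30, 3.54 and 3.79 in SC and 3.57, 4.48 and 5.34 in IMF. UQCRFS1, the Rieske iron-sulfur protein, and UQCRC1, a core protein, had differences of 0.39 ± 0.19 (adjusted p = 0.0777) and 0.06 ± 0.15 (adjusted p = 0.727).

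All 17 complex V genes had a positive difference, from 0.20 for ATP5ME to 1.32 for ATP5MC1, and 11 passed. ATP5MC1 is one of 3 genes for the c subunit of the rotating ring, which all encode the same mature protein. It was 3.104, 3.70 and 3.94 in SC and 3.73, 5.06 and 6.07 in IMF (2.50-fold, adjusted p = 1.37e-05), while ATP5MC2 differed by 0.32 (adjusted p = 0.00138) and ATP5MC3 by 0.23 ± 0.14 (adjusted p = 0.17). ATP5F1B, the catalytic beta subunit, was 5.52, 5.92 and 6.14 in SC and 5.72, 6.51 and 7.30 in IMF (0.66 ± 0.16, adjusted p = 0.000844), and ATP5F1A, the alpha subunit, did not pass (0.30 ± 0.14, adjusted p = 0.0606). The inhibitor ATP5IF1 was higher by 0.60 ± 0.14 (adjusted p = 0.000929). Among the 9 assembly factors 3 were higher and 2 lower. NDUFAF7, a methyltransferase of complex I, was -1.92, -1.52 and -1.27 in SC and -3.53, -2.99 and -2.38 in IMF (-1.36 ± 0.12, adjusted p = 1.43e-09), without overlap.

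Markers of other cell types moved with this comparison. All 13 skeletal myofibre markers were higher in IMF, by a median of 11.23, and all 5 smooth muscle markers by a median of 3.33, whereas 8 of 9 adipocyte markers and all 5 macrophage markers were lower, by medians of -1.35 and -1.998. The IMF adipocyte level ran from 2.19 to 4.36 and that of SC from 4.33 to 5.01. The part of these cells in the respiratory chain differences was not tested. With scan day as a block in a fit over all 96 arrays 59 members passed, 49 higher and 10 lower. In the fit of IMF and SC arrays alone the day block left 13, among them COX6A2, COX8B, COX7A1, COX6A1, COX8A, NDUFA4L2, NDUFAF7 and NDUFB2, and that fit rests on a single SC array of day 3. SDHB, UQCRB, ATP5MC1, ATP5F1B and NDUFS1 lost their calls there, with differences of 0.92, 0.90, 1.44, 0.61 and 0.54, as did COX4I2, with -0.19. Without the SC array high in smooth muscle markers, an alternative chosen after seeing the data, 60 passed, 51 of them higher.

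Within IMF the arrays at the upper end of the myofibre level had higher respiratory chain levels and lower adipocyte marker levels than those at the lower end. The 4 arrays with the lowest myofibre level, from 5.95 to 6.45, had complex I levels of 3.42, 3.46, 3.65 and 3.76, all inside the SC range. The 5 arrays with the highest, from 7.66 to 7.74, had complex I levels from 4.51 to 4.71, above all SC arrays. The adipocyte level was 3.83 to 4.36 on the first 4 arrays and 2.19 to 3.48 on the last 5, and the parts of both cell types in these levels cannot be told apart here. COX6A2 was 2.61 to 3.34 on the first 4 arrays and 4.89 to 5.41 on the last 5. COX6A1 ran the opposite way, with 4.10 to 4.32 on the first 4 and 3.04 to 3.71 on the last 5.

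**Figure D3:**
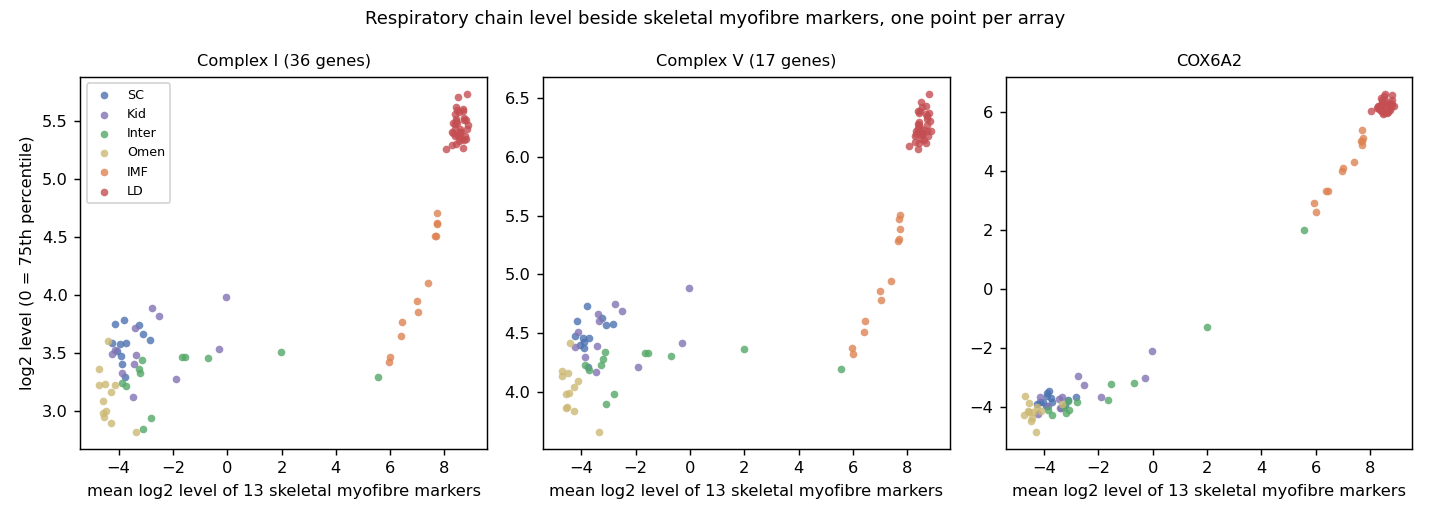
Mean log2 level of complex I, of complex V and of COX6A2 (y axes, 0 is the 75th percentile) against the mean level of 13 skeletal myofibre markers (x axis), one point per array and coloured by tissue. IMF arrays climb from complex I levels inside the SC range at a myofibre level of 5.95 to 4.71 at 7.74, below LD, and one Inter array has a myofibre level of 5.56 with a complex I level of 3.29.

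The position of IMF on the linear way from the SC mean to the LD mean (0% is SC and 100% is LD) was computed for the 73 subunits that were higher in LD than in SC. Its median was 17.4%, from -28.5% to 31.8%, with 17.9% for complex I, 15.6% for complex II, 16.6% for complex III, 24.4% for complex IV and 16.7% for complex V. NDUFA10, NDUFA3, SDHA, COX4I1 and NDUFV1 fell below 0%. Only 9 of the 15 complex IV genes enter, COX6A2, COX7A1 and COX8B among them, since the others were lower in LD. The 13 citric acid cycle genes had a median of 19.9% and the 13 skeletal myofibre markers one of 37.5%, from 23.7% to 62.5%. These positions share their SC and LD arrays and are given as a description.

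In LD against SC 88 of the 89 members passed, 81 higher in LD and 7 lower, against 42.5% of all named genes higher and 43.3% lower. The median difference was 1.74 over the members and 0.01 over all named genes. In 81 members the 36 LD arrays and the 12 SC arrays did not overlap, 76 of them with LD above and 5 with LD below, against 21% of all named genes without overlap and with LD above and 22.9% with LD below. COX6A2 was 5.95, 6.21 and 6.62 in LD (1010-fold above SC, adjusted p = 1.22e-64), COX8B 5.84, 6.15 and 6.63 (150-fold, adjusted p = 6.72e-41) and COX7A1 6.54, 7.03 and 7.48 (31.3-fold, adjusted p = 1.83e-44). COX6A1 was 1.46, 1.88 and 2.34 in LD, 8.02-fold below SC (adjusted p = 8.03e-36), COX8A 4.60-fold below (adjusted p = 1.07e-33), and NDUFAF7 differed by -2.14 (adjusted p = 7.58e-26). NDUFB2 was 8.25-fold higher, SDHB 6.92-fold, UQCRB 6.31-fold and ATP5MC1 8.56-fold (adjusted p = 3.09e-42, 6.23e-42, 5.73e-40 and 1.55e-37). SDHA, which did not pass in IMF, was higher in LD by 0.89 ± 0.08 and NDUFV1 by 1.35 ± 0.08. Within scan day 1 all 89 passed, 81 higher and 8 lower.

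IMF against LD called all 89 members, 4 higher in IMF and 85 lower, against 37.4% of all named genes higher and 42.2% lower, with a median of -1.30 over the members. COX6A1 (1.86), COX8A (0.86), COX7A2 (0.86) and NDUFAF7 (0.78) were higher in IMF. The lowest differences were those of COX6A2 (-2.06 ± 0.16), COX8B (-2.02 ± 0.15) and COX7A1 (-1.89 ± 0.14). By complex the lowest were NDUFS1 (-1.68), SDHB (-1.72), UQCRFS1 (-1.77) and ATP5MC1 (-1.78). IMF and LD arrays did not overlap in 74 members, against 20.7% of all named genes. Within scan day 3, on which all IMF arrays and 8 LD arrays were scanned, 86 members passed, 4 higher and 82 lower.

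**Figure D4:**
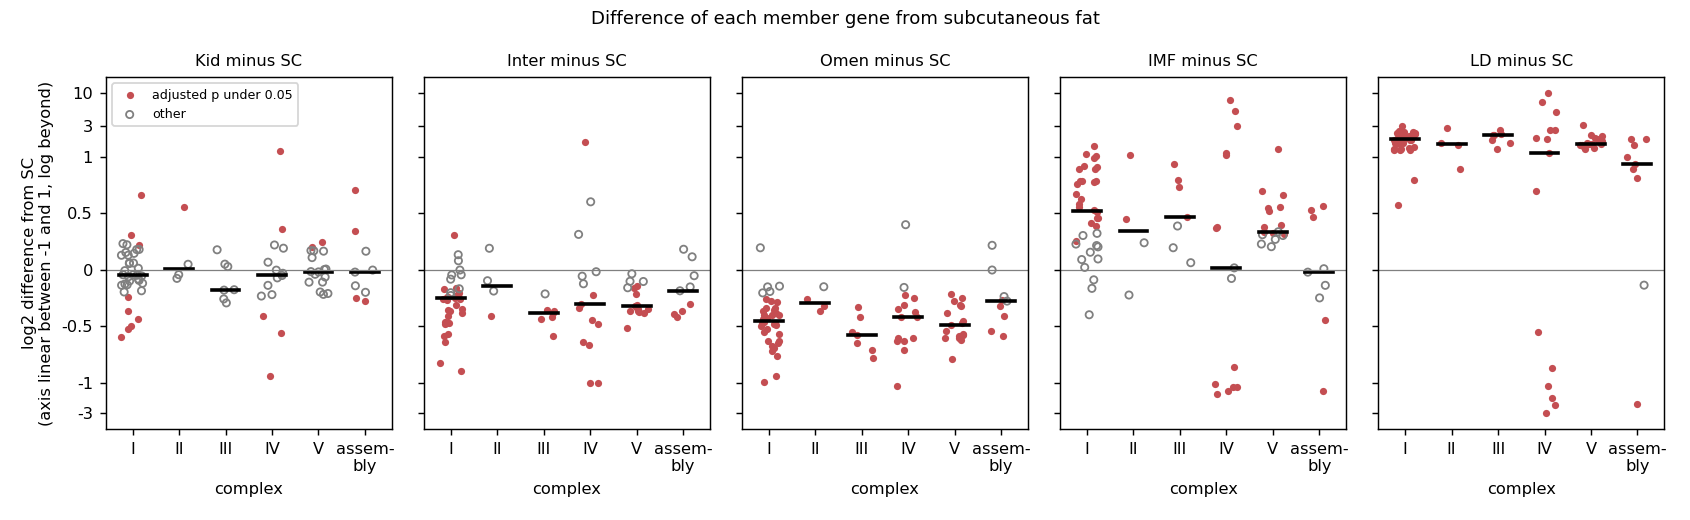
Log2 difference from SC (y axis, linear between -1 and 1 and logarithmic beyond) of each member gene by complex (x axis) in Kid, Inter, Omen, IMF and LD, with red points past the threshold of adjusted p under 0.05, open points for the others and a bar for the median of the complex. The inhibitor ATP5IF1 is left out. Most members lie below 0 in Inter and Omen and above 0 in IMF and LD, and complex IV is spread both ways in IMF and LD.

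Omental fat had the lowest mean level of each complex among the fat depots, and was tested against SC only. Of the 89 members 77 passed against SC, all of them lower in Omen, against 31.9% of all named genes lower and 19% higher. The median difference was -0.42 over the members and -0.09 over all named genes. All 17 complex V genes and all 7 complex III genes were called lower, as were 31 of 36 in complex I, 3 of 4 in complex II, 13 of 15 in complex IV and 5 of 9 assembly factors. In 2 genes, NDUFB7 and SDHAF1, the Omen and SC arrays did not overlap, against 5.28% of all named genes.

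NDUFV1 was 3.92, 4.52 and 4.80 in SC and 3.08, 3.43 and 4.03 in Omen (1.99-fold lower, adjusted p = 4.56e-07). NDUFS7, a core subunit at the ubiquinone site, differed by -0.94 ± 0.12 (adjusted p = 6.35e-07). UQCRC1 differed by -0.78 (adjusted p = 1.54e-05) and UQCRFS1 by -0.71 (adjusted p = 9.50e-06). Both had overlapping groups. ATP5MC1 was 2.47, 2.85 and 3.26 in Omen against 3.104, 3.70 and 3.94 in SC (1.73-fold lower, adjusted p = 8.19e-07). SDHA was lower by a smaller margin (-0.37, adjusted p = 0.0347). In complex IV COX4I2 had the lowest difference (-1.11 ± 0.21, adjusted p = 0.000122), COX4I1 was lower by -0.61 (adjusted p = 2.68e-06) and COX8A by -0.71 (adjusted p = 2.29e-05). COX8B (0.40 ± 0.36, adjusted p = 0.379), NDUFB2 (0.19, adjusted p = 0.14) and COX7A2 (-0.16, adjusted p = 0.235) did not pass. In 42 of the 48 called genes with several probes every probe pointed the same way, and for NDUFA3 and NDUFA7 another probe of the gene was called in the opposite direction. Without the 5 Omen arrays high in mesothelium markers 61 members passed, all lower. With scan day as a block over all 96 arrays 70 passed, 69 of them lower, and in the fit of Omen and SC arrays alone, which again rests on 1 SC array of day 3, 4 passed, all lower. There NDUFS7 (-0.78), UQCRC1 (-0.64), ATP5MC1 (-0.62) and COX4I2 (-0.07) were among the genes that lost their calls.

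In intermuscular fat 62 members passed against SC, 60 lower and 2 higher, against 32.9% of all named genes lower and 19.7% higher. The median was -0.27 over the members and -0.09 over all named genes. Lower genes made up 26 of 36 in complex I, 1 of 4 in complex II, 6 of 7 in complex III, 9 of 15 in complex IV, 13 of 17 in complex V and 4 of 9 assembly factors. The higher genes were COX8B and NDUFB2 (0.30, adjusted p = 0.0149). COX8B was -2.25, -1.05 and 0.33 in SC and -1.81, 1.17 and 2.27 in Inter (3.29-fold, adjusted p = 0.00335). Its level varied among the Inter arrays without COX6A2: the array with the highest COX8B, at 2.27, had a COX6A2 level of -4.12 and a myofibre level of -3.87, whereas the array with the highest myofibre level, 5.56, had COX6A2 at 2.01 and COX8B at 2.10.

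The lowest differences in Inter were those of COX4I2 (-1.02, adjusted p = 0.000224), NDUFA4L2 (-1.02, adjusted p = 1.39e-06) and NDUFA3 (-0.89, adjusted p = 3.62e-08). NDUFA3 and ATP5ME (-0.51, adjusted p = 8.71e-06) were the 2 genes in which the groups did not overlap, against 4.84% of all named genes, but another probe of NDUFA3 was called the other way, as was one of NDUFA7, and in 29 of the 37 called genes with several probes every probe pointed the same way. NDUFV1 (-0.82, adjusted p = 3.1e-05), UQCRC1 (-0.59, adjusted p = 0.00153), SDHA (-0.41, adjusted p = 0.0461), ATP5F1A (-0.37, adjusted p = 0.00116) and COX4I1 (-0.44, adjusted p = 5.37e-05) were lower, all with overlap. The split depended on the scaling: quantile normalization gave 9 higher and 23 lower, and centring on the mean of each array 8 and 38. Scan day as a block over all 96 arrays left 44, with 2 higher and 42 lower, and NDUFB2 (0.30), SDHA (-0.29) and ATP5F1A (-0.25) were not among them. Without the 2 arrays high in myofibre markers 62 passed, 2 higher and 60 lower. In Inter 6 of 13 myofibre markers were higher than in SC.

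Kidney fat was the depot with the fewest members called against SC, and these 21 split into 10 higher and 11 lower, against 20.9% of all named genes higher and 23.8% lower, with a median of -0.04 over the members. In none of the 89 members were the Kid and SC arrays without overlap, against 4.65% of all named genes. COX8B was -1.67, 0.19 and 1.84 in Kid (2.38-fold above SC, adjusted p = 0.014), NDUFAF2, an assembly factor of complex I, was higher by 0.71 ± 0.13 (adjusted p = 9.83e-05), NDUFB2 by 0.66 (adjusted p = 0.000165), SDHB by 0.56 (adjusted p = 0.00026), COX7A2 by 0.36 (adjusted p = 0.0113) and ATP5PB, of the stalk of complex V, by 0.25 (adjusted p = 0.0169). COX4I2 (-0.94, adjusted p = 0.0033), NDUFA3 (-0.59, adjusted p = 0.000138), NDUFA4L2 (-0.56, adjusted p = 0.00595) and NDUFV1 (-0.52, adjusted p = 0.00389) were lower. The NDUFA3 call rests on its brightest probe, and the mean of its probes gave a difference of 0.0519, in the opposite direction. In 10 of the 12 called genes with several probes every probe pointed the same way. The split turned with the scaling, to 24 higher and 8 lower by quantile normalization, 19 and 9 by centring on the mean and 18 and 11 by normexp. Within scan day 1, with 5 Kid and 11 SC arrays, 16 passed, and the COX8B difference was 0.53 and no longer past the threshold.

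COX4I2 and NDUFA4L2 were highest in SC of the 5 fat depots, and lower in each of the others by the tests above and, for NDUFA4L2 in Omen, by -0.61 (adjusted p = 0.000471). COX4I2 had a mean level of -0.89 ± 0.59 in SC, -1.83 ± 0.66 in Kid, -1.90 ± 0.43 in Inter, -1.99 ± 0.46 in Omen and -2.05 ± 0.34 in IMF (SD, n = 12 each), and the last 4 did not differ beyond their spread. NDUFA4L2 had 0.49 ± 0.37 in SC, -0.06 ± 0.42 in Kid, -0.11 ± 0.26 in Omen, -0.52 ± 0.28 in Inter and -0.99 ± 0.22 in IMF. With scan day as a block over all 96 arrays the Omen differences from SC were -0.49 for COX4I2 and -0.15 for NDUFA4L2 and did not pass, nor did the IMF difference of COX4I2 (-0.48). In the day-block fits of 2 tissues alone COX4I2 differed by -0.19 in IMF and -0.07 in Omen and NDUFA4L2 by -0.897 in Omen and -0.42 in Kid, and none of these passed. Within scan day 1 the Kid difference of NDUFA4L2 was -0.31 and did not pass.

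To follow the isoforms within an array, which removes the scaling between arrays, the difference between the levels of a pair was compared between groups by permutation over arrays (100000 resamples, two-sided), for 6 pairs and 6 comparisons, 36 in all, of which 26 had an adjusted p under 0.05, 15 higher and 11 lower. COX6A2 minus COX6A1 rose from SC by 9.07 in IMF and 12.99 in LD, COX8B minus COX8A by 6.55 and 9.43, and COX7A1 minus COX7A2 by 3.93 and 6.69, each without overlap and with the smallest p the resamples can give (1e-05, adjusted 3e-05). ATP5MC1 minus ATP5MC3 rose by 1.09 in IMF and 1.71 in LD (adjusted p = 3e-05 by permutation). In the other depots the pairs went different ways. COX8B minus COX8A was higher than in SC in Inter by 2.36 (adjusted p = 0.00015 by permutation), in Kid by 1.48 (adjusted p = 0.0015) and in Omen by 1.11 (adjusted p = 0.0065), with overlap. COX7A1 minus COX7A2 was higher in Inter by 0.44 (adjusted p = 0.016 by permutation; 0.31 and 0.028 without the 2 Inter arrays high in myofibre markers) and lower in Kid by -0.50 (adjusted p = 0.0065), and COX6A2 minus COX6A1 passed in none of the 3 (adjusted p = 0.064, 0.37 and 0.63 by permutation in Inter, Kid and Omen). COX4I2 minus COX4I1 was lower than in SC in all 5 other tissues, by differences from -0.50 in Omen (adjusted p = 0.019 by permutation) to -1.69 in LD (adjusted p = 3e-05). NDUFA4L2 minus NDUFA4 was lower in IMF by -2.61, in Inter by -0.796, in Kid by -0.51 and in LD by -3.71 (adjusted p = 3e-05, 5.5e-05, 0.012 and 3e-05 by permutation), and did not pass in Omen (-0.18, adjusted p = 0.29). ATP5MC1 minus ATP5MC3 was lower in Omen by -0.18 (adjusted p = 0.0065 by permutation). These comparisons share the SC arrays. Scan day was not part of them, and a difference within an array does not remove a shift of a single gene with scan day. The part of scan day in the pairs was not tested.

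Other genes of mitochondrial energy metabolism were taken from lists fixed for this purpose. Their counts stand beside shares over all named genes of 29.9% higher and 39.2% lower in IMF, 19% and 31.9% in Omen, 19.7% and 32.9% in Inter, and 20.9% and 23.8% in Kid. CYC1 (cytochrome c1, a subunit of complex III) was higher in IMF than in SC by 0.56 and the electron carrier CYCS (cytochrome c) by 1.21. Of the 13 citric acid cycle genes 11 were higher in IMF with none lower. Omen had CYC1 lower by -0.66 and 6 of 13 citric acid cycle genes lower with none higher. In Inter 3 of 13 were lower and 4 higher, and in Kid 1 lower and 2 higher. Of the 9 regulators with a probe 6 were higher and 1 lower in IMF, among them PPARGC1A, the coactivator known for driving mitochondrial gene expression, by 1.51 (adjusted p = 4.14e-06), which was also higher in Inter by 0.73 (adjusted p = 0.0068) and lower in Omen by -0.80 (adjusted p = 0.000964). NRF1 did not pass in any of the 4 depots (adjusted p = 0.946, 0.913, 0.256 and 0.672 in IMF, Inter, Kid and Omen). Assembly factors outside the rule, 25 with a probe, had 10 higher and 7 lower in IMF and 2 higher and 10 lower in Omen. Of the 5 brown adipocyte markers with a probe, 1 was higher and none lower than in SC in Kid, 1 higher and 2 lower in Omen, 1 higher and 1 lower in Inter, and 2 higher and 2 lower in IMF. The higher marker in Kid and in Omen was UCP1. UCP1, the uncoupling protein, was well above background on only 2 of 12 SC arrays, 11 of 12 Kid arrays and 12 of 12 Omen arrays, so the size of its difference from SC is not given.

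Supplement after weaning was compared with pasture in LD, with breed in the model. Since the labels do not say which LD arrays come from the earlier kill, kill and age cannot be told apart from diet here. Of the 89 members 4 passed, 3 higher with supplement and 1 lower, against 6% of all named genes higher and 6.78% lower, and 12 had an unadjusted p under 0.05, against 28% of all named genes. The median difference was 0.03. The mean level of complex IV was 4.42 ± 0.10 (n = 12) with supplement and 4.28 ± 0.11 (n = 24) on pasture, and 2 of its 15 genes passed, with a median difference of 0.12. At an unadjusted p under 0.05 there were 7 of the 15, where all named genes had the 28% given above. The same count was 3 of 36 in complex I, 0 of 4 in complex II, 0 of 7 in complex III and 1 of 17 in complex V. For complex I the mean levels were 5.46 ± 0.13 (n = 12) with supplement and 5.45 ± 0.12 (n = 24) on pasture, and for complex V 6.30 ± 0.12 and 6.24 ± 0.11. COX4I2 was -2.53, -1.49 and -0.66 on pasture and -1.74, -0.999 and -0.63 with supplement (0.55 ± 0.13, adjusted p = 0.0044). NDUFA4L2 was -1.52, -0.75 and -0.05 on pasture and -0.88, -0.24 and -0.04 with supplement (0.47 ± 0.10, adjusted p = 0.00283). For both genes the supplement mean was the higher in each of the 3 breeds and the groups overlapped. NDUFB10 was higher by 0.19 ± 0.06 (adjusted p = 0.0479) and SDHAF1, an assembly factor of complex II, lower, at 1.5001, 2.10 and 2.41 on pasture and 1.41, 1.79 and 2.04 with supplement (-0.30 ± 0.08, adjusted p = 0.0157). In this comparison 5 of 6 endothelium markers were also higher, by a median of 0.45, and 3 of 9 adipocyte markers lower. The mean adipocyte level was -0.46 ± 0.49 with supplement and 0.39 ± 0.94 on pasture. The myofibre markers ACTA1 (0.37), CKM (0.20) and TNNC1 (0.18) also passed as higher, with none lower. The mean myofibre level was 8.63 ± 0.25 with supplement and 8.50 ± 0.14 on pasture. The part of these cell types in the result was not tested.

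Each breed's supplement arrays lay on a slide of their own, and with slide as a random block none of the 4 passed. With scan day as a block 1 passed, NDUFA4L2 (0.31). Within scan day 1 the COX4I2 difference was 0.20 and within day 2 it was 0.91, of which the second passed. NDUFA4L2 was 0.27 and 0.29 and passed in neither. The isoform difference NDUFA4L2 minus NDUFA4 was higher with supplement by 0.44 (adjusted p = 0.00019 by permutation), COX4I2 minus COX4I1 by 0.47 (adjusted p = 0.0087) and COX8B minus COX8A by 0.28 (adjusted p = 0.0049). These permutations treat arrays of a slide as separate samples, so that their p-values do not take the slide into account. COX6A2 minus COX6A1, COX7A1 minus COX7A2 and ATP5MC1 minus ATP5MC3 did not pass.

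**Figure D5:**
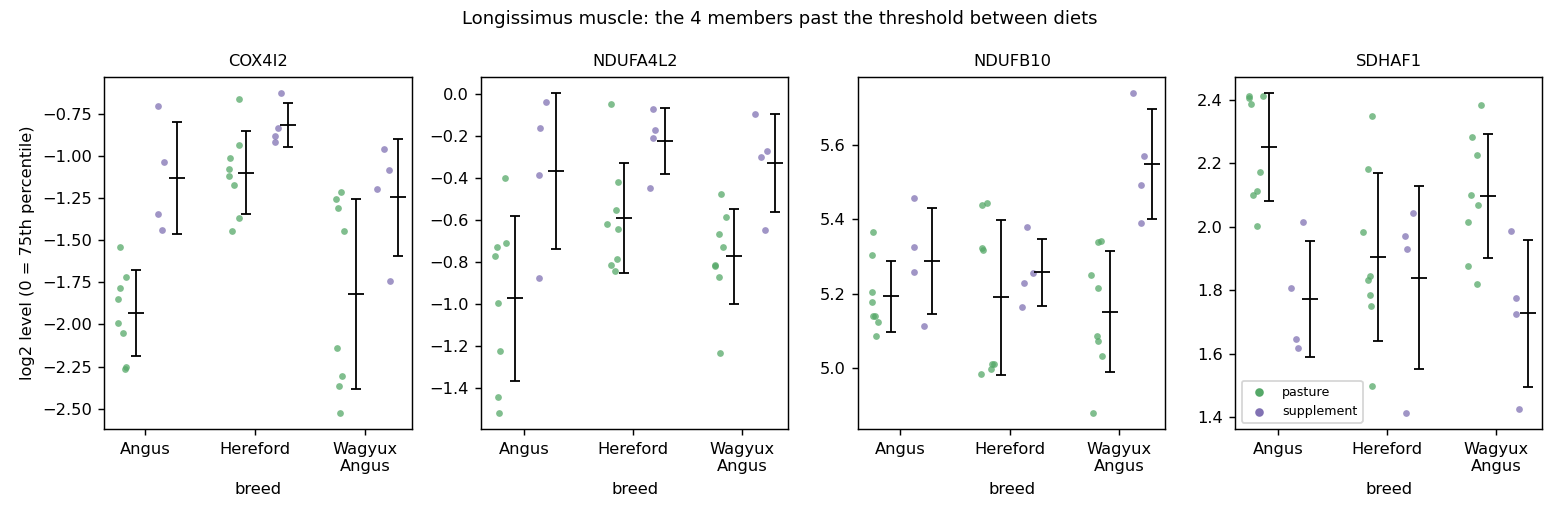
Log2 levels (y axes, 0 is the 75th percentile) in LD of the 4 members past the threshold between diets, by breed (x axis) and diet (8 pasture and 4 supplement arrays per breed), with a black bar for the mean and its SD. COX4I2 and NDUFA4L2 have the higher mean with supplement and SDHAF1 the lower mean in all 3 breeds, with overlap over all arrays.

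Breed was tested in fat over all depots and in LD over both diets. The fat arrays of a breed come from several depots of the same steers. The tests in fat treat them as separate samples, so their p-values do not take the animal into account. In the 60 fat arrays 1 of the 89 members passed, against 3.74% of all named genes, and 6 had an unadjusted p under 0.05, against 17.3% of all named genes. The gene that passed was SDHAF4, with mean levels of -1.34 ± 0.32 (Angus), -0.84 ± 0.40 (Hereford) and -1.06 ± 0.54 (Wagyu x Angus, n = 20 each, adjusted p = 0.0438, limma). The breeds overlapped, and the call was lost for 27 of the 60 arrays when that array was left out. It was also lost with slide as a random block (adjusted p = 0.08, limma), with normexp (0.0506), with the authors' log2 values (0.067), with all probes that are not controls (0.0524) and with the mean of probes (0.0535). No member had a depot difference that depended on breed (limma, 0 of 89, 1 at an unadjusted p under 0.05), against 0% of all named genes, or 6.92% at an unadjusted p under 0.05.

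In the 36 LD arrays 24 of the 89 members differed between breeds, against 25.7% of all named genes, so the members' count was near the background. They were 13 of 36 in complex I, 2 of 4 in complex II, 2 of 7 in complex III, 3 of 15 in complex IV, 3 of 17 in complex V, and ATP5IF1. SDHC, a membrane anchor of complex II, had the lowest adjusted p (0.00104, limma). Its lowest, median and highest levels were 5.04, 5.44 and 5.65 for Angus, 4.85, 5.22 and 5.41 for Hereford and 5.35, 5.57 and 5.96 for Wagyu x Angus, so that Hereford was the lowest breed with overlap. COX4I2 was highest in Hereford, at -1.01 ± 0.25 against -1.67 ± 0.48 in Angus and -1.63 ± 0.56 in Wagyu x Angus (n = 12 each, adjusted p = 0.00322, limma). NDUFS6 (4.36 ± 0.19 in Hereford, 4.67 ± 0.17 in Angus and 4.72 ± 0.25 in Wagyu x Angus, adjusted p = 0.00378, limma) and NDUFC1 (4.68 ± 0.17, 5.01 ± 0.16 and 4.92 ± 0.16, adjusted p = 0.00578) were lowest in Hereford. NDUFS1 was highest in Wagyu x Angus, at 4.22 ± 0.20 against 3.896 ± 0.30 in Angus and 3.803 ± 0.09 in Hereford (adjusted p = 0.00448, limma), and COX6A1 was highest in Angus, at 2.10 ± 0.25 against 1.81 ± 0.19 and 1.70 ± 0.15 (adjusted p = 0.0046). With slide as a random block none of the 24 passed, with scan day as a block 11 did, and on pasture arrays alone 11 did. Leaving out 1 array gave 17 to 33, and the lowest count was reached without any 1 of 3 arrays. In this comparison 8 of 13 myofibre, 5 of 9 adipocyte and 4 of 6 endothelium markers also differed between breeds, and their part in the result was not tested.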

How the data were processed

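Total RNA from 96 bovine samples was hybridised to one-colour Agilent arrays. The authors deposited intensity values from the scanner software, with background subtracted in the processed signal, and log2 values for each probe, which the median signal of a spot less its local background gives. The log2 of the processed signal minus each array's 75th percentile was used, with outlier spots left out and the 34227 probes that carry such a log2 value tested. Probes were named through RefSeq accessions (ARS-UCD2.0) and, for 3 members, the study's probe tables. Groups were compared with limma 3.58.1 in R 4.3.3 (lmFit and eBayes, Benjamini-Hochberg over all probes, threshold 0.05), pairs of isoforms by permutation (scipy 1.17.1, numpy 2.4.6 and pandas 2.3.3 in Python 3.11.15, figures by matplotlib 3.10.9). Named genes were, per comparison, the 3 highest and 3 lowest called members, 1 each way per complex not yet covered, fixed isoform pairs and core subunits, and the 6 lowest adjusted p-values between breeds. Members and lists were chosen with earlier results of these data known. On simulated data for IMF minus SC (34227 probes) a change of 0.5 was recovered in 50% and of 1 in 86% of the changed probes, with 7 false calls. Replicates are separate animals per the study's design, 4 per depot and breed in fat, but the labels do not tie samples of different depots to an animal. Alternatives were quantile, mean-centred and normexp values (offset 50, on the median spot signal since the mean is absent), the authors' log2 values, other probe sets, blocks by slide, scan day or replicate number, breed as a covariate, an equal-variance test as in the methods, and arrays left out in turn. Fits without arrays high in markers of other cells were chosen after seeing the data. No sequences were used here.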

Additional observations from a re-analysis of the deposited data

Results flagged for a closer look

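Among 105 sets of 4 to 10 arrays and complexes checked for a value far from the others, 3 were found, and chance gives about 1 in 20. The mean complex IV level of a Hereford kidney fat array (slide 22, position 3) was 3.329, against 2.546 to 2.612 on the 3 other Hereford kidney fat arrays, with a gap of 0.916 of the range. The same array had the highest myofibre level of the kidney fat arrays, at -0.04, and COX8B at 1.84. The mean complex IV level of an Angus LD array on pasture (slide 23, position 1) was 3.997, against 4.217 to 4.368 on the 7 others, a gap of 0.592 of the range. The mean complex I level of a Wagyu x Angus LD array with supplement (slide 6, position 3) was 5.734, against 5.467 to 5.510 on the 3 others, a gap of 0.839 of the range. No cause was tested.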

How the results depend on the processing

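Under all alternatives run, the counts of called members in LD minus SC, IMF minus LD, the depot effect and the depot by breed test stayed within 1.5 times the reported counts. Quantile normalization gave 32 in Inter, 32 in Kid and 2 between breeds in fat. Normexp gave 0 between breeds in fat, 2 between diets and 49 between breeds in LD, and the authors' log2 values, all probes that are not controls, and the mean of all probes of a gene each gave 0 between breeds in fat. Slide as a random block gave 0 between breeds in fat, 0 between diets and 0 between breeds in LD. Scan day as a block gave 13 in IMF minus SC and 4 in Omen minus SC (arrays of both groups only), 1 between diets and 11 between breeds in LD. Within scan day 2 the diet count was 1, and breed in LD on pasture arrays alone gave 11, both chosen after seeing the data. The cause was not tested. Leaving out each array in turn gave 0 to 1 between breeds in fat, 3 to 5 between diets, 17 to 33 between breeds in LD and 87 to 88 between depots. The replicate number is the array's position on its slide: deviations of samples with the same number in other groups correlated with a median of 0.0123 (n = 1080 pairs, -0.425 to 0.491) and of samples with other numbers with -0.00509, so the samples share only a number, and with the replicate block the counts were 59 in IMF, 61 in Inter, 22 in Kid, 76 in Omen, 88 in LD, 89 in IMF minus LD, 3 between diets, 20 between breeds in LD, 88 between depots, 1 between breeds in fat and 0 for depot by breed. Values that changed sign were NDUFA4 in Inter (quantile, 0.0257), COX7A2L in IMF minus LD (quantile 0.0702, normexp 0.0021), NDUFA3 in Kid (mean of probes, 0.0519), COX7A1 in Omen (scan day block, 0.0133), COX4I2 in IMF minus LD (scan day block and within day 3, 0.0265) and NDUFA4L2 in IMF minus LD (scan day block and within day 3, 0.126, and 0.0039 over all 96 arrays). Of the other single-gene values 2806 were alike, 151 lost and 40 gained the threshold, and 3 moved in another way. Mean centring moved the median of all genes in Inter from -0.09 to 0.03, and normexp in IMF from -0.07 to -0.19, in Inter to -0.20, in Kid to -0.13, in Omen to -0.21 and in IMF minus LD to -0.25. Scan day as a block on Inter and SC arrays alone could not be fitted.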
